A study of Mus musculus with 12 samples.

Results

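The contractile apparatus of smooth muscle was followed through 39 genes, chosen by symbol for their known function: 5 for smooth muscle actins and the myosin heavy and light chains, 8 regulators of the thin filament, 8 for the light chain kinase, the phosphatase and their regulators, 11 for attachment and scaffolding, 4 for serum response factor (SRF) and its partners, and 3 ion channel genes. All 39 were found by Entrez identifier among the 27179 genes counted, and all 39 were among the 15969 genes with enough counts to be tested. The cells were luminal and basal mammary cells, sorted by flow cytometry from wild type FVB/N females that received no treatment. Virgin mice, mice at day 18.5 of pregnancy and mice at day 2 of lactation were used, 2 of each, and every combination of cell type and stage has 2 libraries, 12 in all. The labels give neither the ages of the mice nor the antibodies of the sort. Nothing in them says that the 2 libraries of a group came from separate mice, so p-values measure the spread between these libraries. Going by the run names, every luminal library was read in lane 1 and every basal library in lane 2, so that cell type and lane cannot be told apart.

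Smooth muscle contracts when calcium, entering through voltage-gated channels or released from stores, binds calmodulin and switches on myosin light chain kinase. The kinase phosphorylates the regulatory light chain, and smooth muscle myosin then pulls on actin filaments that are anchored in dense plaques at the membrane. A myosin phosphatase reverses this, the inhibitor CPI-17 holds the phosphatase back, and cyclic GMP-dependent protein kinase favours relaxation. Many genes of the apparatus are bound by SRF at a DNA element called the CArG box. In the mammary gland the basal layer holds myoepithelial cells, which use this apparatus to squeeze milk out of the alveoli in answer to oxytocin.

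The CArG box was searched because it is the element the SRF-bound members would share. It was looked for in RefSeq promoters (GRCm38.p6) from 250 bases before to 50 bases after each start, by its consensus, which reads the same on both strands, with no other motif searched beside it. Promoters were at hand for 33 of the 39 members, and for Tagln, Actg2, Myh11, Rock1, Csrp2 and Myocd none was. The box was present in 5 of the 33 (15.2%), against 488 of 27025 genes (1.81%). The 5 were Cnn2, Myl6, Myl9, Srf and Vcl, and Srf held 2 boxes. The 100 bases around each box are given 5′ to 3′ on the strand of the gene, with the box in capitals. They lie at chr10:79988499-79988598 (plus strand) for Cnn2, chr10:128493010-128493109 (minus) for Myl6, chr2:156775258-156775357 (plus) for Myl9, chr17:46556180-46556279 (minus) for Srf and chr14:20929148-20929247 (plus) for Vcl.
Cnn2: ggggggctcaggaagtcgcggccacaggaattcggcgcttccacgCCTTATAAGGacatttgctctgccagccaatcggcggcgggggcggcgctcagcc
Myl6: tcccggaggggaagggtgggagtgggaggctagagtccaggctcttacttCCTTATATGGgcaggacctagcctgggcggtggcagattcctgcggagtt
Myl9: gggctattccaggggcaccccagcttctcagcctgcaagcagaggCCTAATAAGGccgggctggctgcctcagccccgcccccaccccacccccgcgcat
Srf: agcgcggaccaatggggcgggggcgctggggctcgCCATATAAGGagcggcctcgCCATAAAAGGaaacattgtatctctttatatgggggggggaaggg
Vcl: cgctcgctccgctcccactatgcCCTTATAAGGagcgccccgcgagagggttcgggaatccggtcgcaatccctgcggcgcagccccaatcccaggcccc

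The promoter of Acta2, the member with the highest level, held no box of the full consensus. In the 250 bases before its start, at chr19:34255374-34255623 on the minus strand, 2 stretches differed from the consensus by 1 letter, at bases -84 to -75 and -34 to -25 from the start, and these are in capitals. The start is that of the promoter entry. It lies inside the RefSeq gene span, chr19:34240336-34255585. The starts of the entries of Myl6, Myl9, Srf and Vcl likewise lie inside the spans of those genes, and the stretches printed for Myl6 and Srf lie wholly inside them. Positions do not count from the edge of the gene span. Such 1-letter variants are common: 22.5% of all genes and 30.3% of the members with a promoter had at least 1. These shares are for the longer stretch from 250 bases before to 50 bases after a start. The match of letters is a description and says nothing of binding.
Acta2: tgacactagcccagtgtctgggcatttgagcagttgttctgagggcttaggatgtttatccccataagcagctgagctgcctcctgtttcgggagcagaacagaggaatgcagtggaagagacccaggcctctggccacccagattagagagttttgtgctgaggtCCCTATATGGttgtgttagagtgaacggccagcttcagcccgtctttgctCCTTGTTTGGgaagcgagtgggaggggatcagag

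Library totals lay between 20015386 and 24723827 counts. Levels are CPM (counts scaled to a common library size) after scaling by TMM factors, which adjust each library for its composition, and a level per length is CPM divided by the deposited gene length in kilobases. Changes are log2 fold changes from edgeR's quasi-likelihood test with the standard error (SE), and a gene was called at a Benjamini-Hochberg adjusted p below 0.05 over all genes tested. Of 9 basal marker genes fixed for this work, 9 were higher in basal than in luminal cells of virgin and of lactating mice and 8 in pregnant mice, where Itgb4 was lower. Of 9 luminal markers, 9, 9 and 7 were lower in basal cells of virgin, pregnant and lactating mice.

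Most members were higher in basal cells at every stage. In virgin mice 36 were higher in basal cells, 1 was lower and 2 were not called, and their median log2 difference was 3.43, against -0.01 over all genes, of which 62.8% were called (31.5% higher and 31.2% lower in basal cells). In pregnant mice 38 were higher and 1 was not called (median 4.79, 0.02 over all genes, 69.9% of all genes called, 35.9% higher). In lactating mice all 39 were higher (median 5.89, 0.08 over all genes, 74.6% called, 39.2% higher). Differences and luminal percentages of lactating mice rest on the scaling. With library size alone the median of all genes moved by 0.99 toward basal cells there (10207 of 15969 genes higher) and by -0.16 and 0.19 in virgin and pregnant mice. All 37, 38 and 39 calls of members were kept. In pregnant and lactating mice this is no check of higher basal levels, since the median moved in that direction. Of the counts of a basal library the members together took 2.83% and 3.06% before pregnancy, 6.58% and 7.71% late in it and 8.99% and 8.26% in lactation, and between 0.064% and 0.354% of the counts of a luminal library. Markers of other cells were also higher in basal than in luminal libraries. Of 12 pericyte and vascular smooth muscle markers 11, 11 and 10 were higher in virgin, pregnant and lactating mice (medians 3.81, 3.97 and 4.13), with 1 lower each time. Of 9 fibroblast markers 6, 8 and 3 were higher and 1, 0 and 0 lower, and all 8 endothelial markers were higher in virgin mice (median 2.12). The part of these cells in the differences was not tested. In sorted cells sequenced as a bulk, fewer cells of a type and less RNA per cell cannot be told apart. Leaving out 1 library or using another setting kept 36 of 37, 37 of 38 and 36 of 39 calls in virgin, pregnant and lactating mice. Rhoa lost its call in virgin mice, where it was lower in basal cells, without each of the 4 virgin libraries in turn (adjusted p from 0.0538 to 0.0869). Rock2 lost it in pregnant mice without luminal pregnant replicate 1 (0.139) or basal pregnant replicate 2 (0.0577), and in lactating mice Rhoa, Csrp2 and Myocd did without at least 1 of the lactating libraries (0.0662 to 0.257), and Csrp2 also by DESeq2 (0.0708) and with RLE factors (0.0524).

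**Figure D1:**
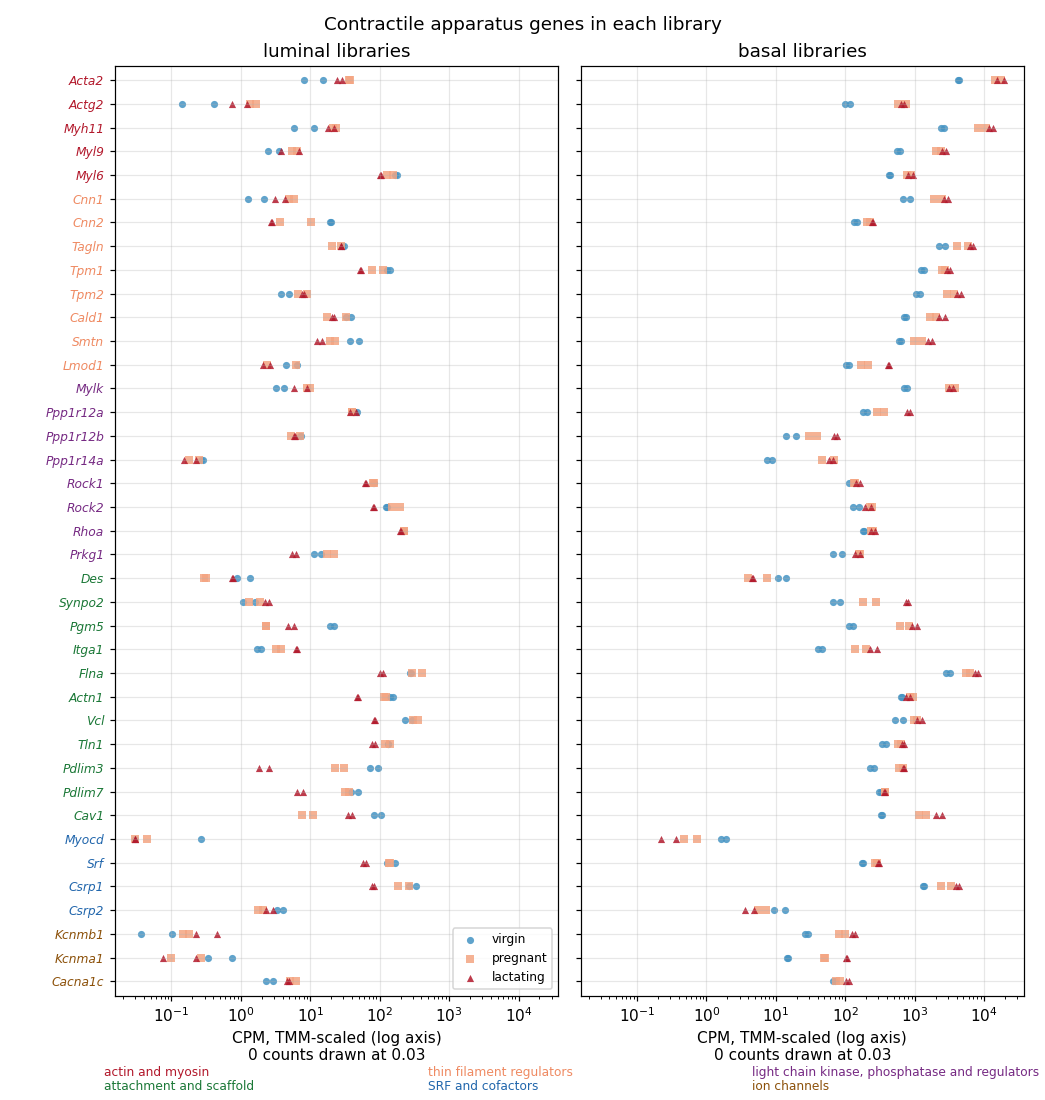
Level of each of the 39 genes in each of the 12 libraries, as TMM-scaled CPM on a log axis, with luminal libraries on the left and basal libraries on the right. Colours and shapes of points give the stage, colours of names give the role, and 0 counts are drawn at 0.03. Acta2 stands between 4226 and 19269 CPM in basal and between 8.1 and 36.8 CPM in luminal libraries.

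In basal cells the rise came with pregnancy. From virgin to pregnant mice 32 members rose, 2 fell and 5 were not called, with a median of 1.02 (0.00 over all genes, of which 30.0% were called and 15.6% rose). Myocd, the gene of myocardin, an SRF partner, was among the 5 (fitted change -1.53, SE 0.54), with Cnn2 (0.64), Pdlim7 (0.25), Cacna1c (0.21) and Rock1 (0.14). From pregnant to lactating mice 12 rose, 0 fell and 27 were not called, with a median of 0.22 (0.01 over all genes, 33.1% called, 15.7% rose). Over the whole span from virgin to lactating mice 35 rose, 3 fell and 1, Pdlim7, was not called (median 1.49, 0.00 over all genes, 47.5% called, 23.7% rose). These 3 comparisons share libraries, so each is given by its own values.

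The calls of the first transition changed little with the analysis and those of the second changed more. From virgin to pregnant mice 29 of 34 calls held in every alternative, all 29 of them rises. Those that did not were Lmod1 (0.107 by DESeq2, and adjusted p 0.0557, 0.0993 and 0.148 without basal virgin replicate 1, basal virgin replicate 2 and basal pregnant replicate 2), Rhoa (0.0574 without basal pregnant replicate 2, 0.0775 with library size alone), Actn1 (0.0563 without the same library), Des (0.0741 without basal virgin replicate 1, 0.0725 without basal pregnant replicate 1) and Csrp2 (0.139 without basal virgin replicate 2, 0.14 without basal pregnant replicate 2). From pregnant to lactating mice only 5 of the 12 rises held in every alternative, namely Synpo2, Ppp1r12a, Ppp1r12b, Lmod1 and Kcnma1. Without basal pregnant replicate 1, the lower of the 2 pregnant libraries in 37 of the 39 members, those 5 were all that was called. Over the whole span 33 of 38 calls held, and Actn1, Cnn2, Rock1, Rock2 and Myocd lost theirs without at least 1 library (largest adjusted p 0.278, 0.0797, 0.201, 0.0641 and 0.0643, for Cnn2 without basal virgin replicate 2 and for the other 4 without basal lactating replicate 1). With library size alone Actn1 and Rock1 were not called either (0.576 and 0.421), and Actn1 was not with the replicate block (0.0573). Rock1 also lost its call under an analysis setting other than library size alone or a left-out library.

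**Figure D2:**
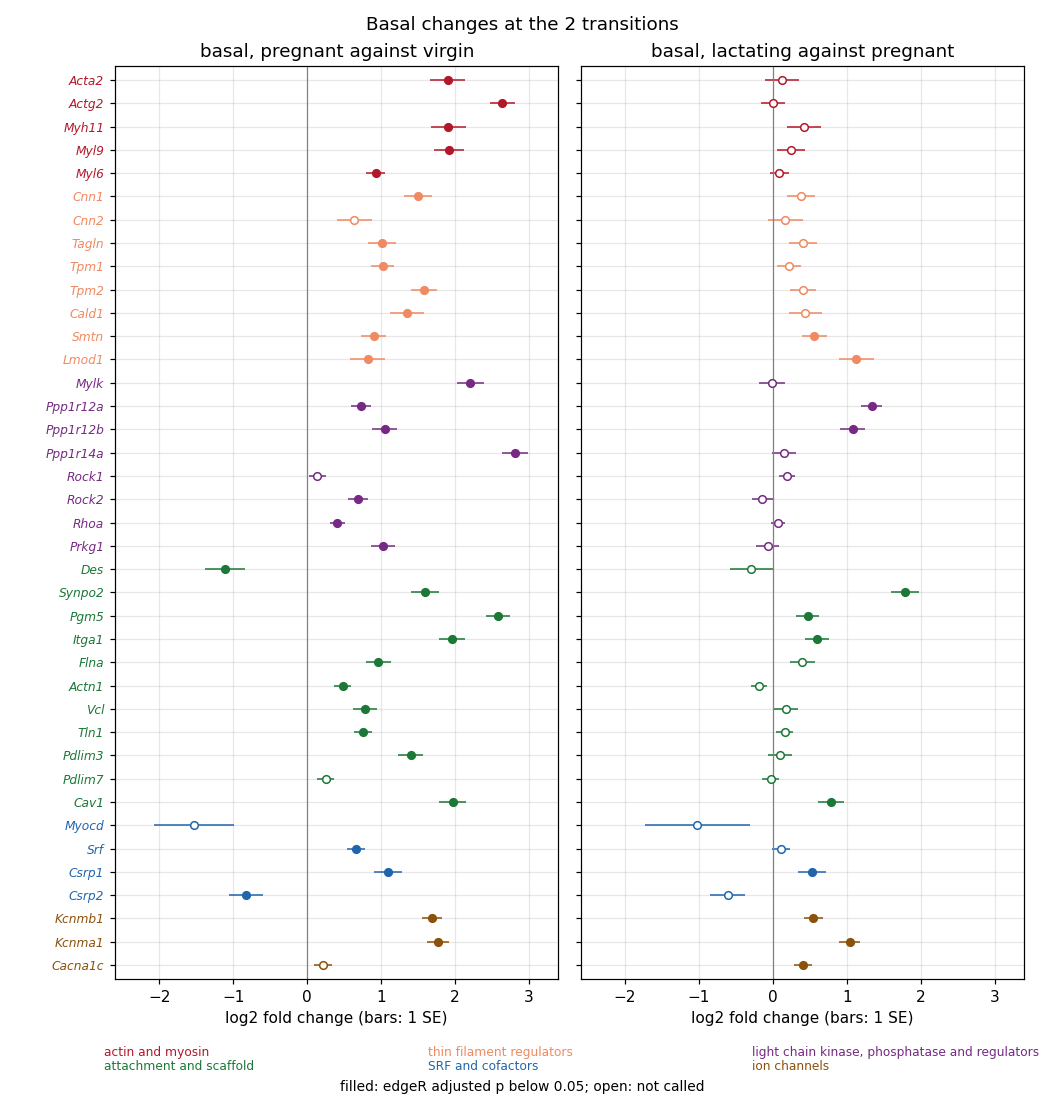
Log2 fold change of each gene in basal cells from virgin to pregnant mice (left) and from pregnant to lactating mice (right), with bars of 1 SE and filled points for an edgeR adjusted p below 0.05. On the left 32 filled points lie right of 0 and 2 (Des, Csrp2) left of it, and on the right 12 filled points lie right of 0.

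Among the force-producing proteins, Acta2 (smooth muscle alpha-actin, chr19:34240336-34255585, GRCm38.p6) had the highest basal level per length of all members, with group means of 2400, 8929 and 9743 CPM per kilobase in virgin, pregnant and lactating mice. Its CPM were 4318 and 4226 in the basal libraries of virgin mice, 14460 and 17327 in pregnant and 19269 and 15416 in lactating mice. Both virgin libraries were far below the other 4, and the pregnant and lactating values overlapped. The rise with pregnancy was 1.90 (SE 0.24, edgeR adjusted p 0.000112) and the later difference was 0.13 (SE 0.23, 0.706).

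Myh11, the smooth muscle myosin heavy chain, had 2622 and 2361 CPM before pregnancy, 8243 and 10509 at day 18.5 and 13288 and 11757 in lactation. Its 3 groups did not overlap, yet only the first step was called (1.91, SE 0.24, adjusted p 0.000111; second step 0.42, SE 0.23, 0.187). Actg2, the gamma-actin of enteric smooth muscle, rose from 115 and 97.8 to 570 and 756 CPM (2.64, SE 0.17, 1.18e-06) and stood at 695 and 632 in lactating mice, inside the range of the pregnant ones (0.00, SE 0.16). Myl9, the regulatory light chain, rose from 606 and 555 to 1997 and 2402 CPM (1.92, SE 0.20) with 2803 and 2445 in lactation (0.25, SE 0.19, adjusted p 0.327). Myl6, an essential light chain that is also part of non-muscle myosin, moved least of the 5, from 427 and 444 to 767 and 893 CPM (0.93, SE 0.13) and to 953 and 809 (0.09, SE 0.13). All 5 genes rose with pregnancy, against 15.6% of all genes, and 0 of 5 were called from pregnancy to lactation, against 33.1% of all genes.

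The coding sequences of the actins are alike, so that the authors' counting could have moved reads between them. Acta2 and Actg2 share 84.4% of aligned coding bases, with 29 bases as the longest identical run, and Acta2 and the non-muscle actin Actb share 83.2%, with a run of 47. Myl9 and its non-muscle relative Myl12b share 85.4%. Actg2 is therefore uncertain at low levels beside Acta2, whose CPM are more than an order of magnitude higher.

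The thin filament regulators rose with pregnancy in 7 of 8 cases (87.5%, against 30.0% of all genes called and 15.6% that rose). In lactation 2 of 8 rose again and 0 fell (25%, against 33.1% of all genes called and 15.7% that rose). Tagln (transgelin, an actin-binding protein; chr9:45929628-45936058) had the highest level per length of the group, 2732 and 2234 CPM before pregnancy, 4086 and 5906 at day 18.5 and 6985 and 6257 in lactation. The groups did not overlap, and the steps were 1.01 (SE 0.19, adjusted p 0.00196) and 0.41 (SE 0.19, 0.121). Exons of Pcsk7 and Gm48529 on the opposite strand cover 67.9% of the exon bases of Tagln in GENCODE vM21, and the strand setting of the counting is not given in the sources used here. Pcsk7 itself was read at 30.2 to 46.8 CPM in basal libraries. In luminal libraries Pcsk7 stood above Tagln, with 148 and 160 against 27.3 and 27.8 CPM in lactating mice, so the luminal level of Tagln is uncertain.

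Cnn1, basic calponin, which binds actin and holds back the myosin ATPase, rose from 852 and 684 to 1880 and 2452 CPM (1.5, SE 0.19), with 3008 and 2649 in lactation (0.38, SE 0.19, adjusted p 0.141). The tropomyosin Tpm2 rose from 1186 and 1028 to 2885 and 3729 CPM (1.58, SE 0.18), with 4706 and 4098 in lactation (0.41, SE 0.18, 0.0902). Tpm1 rose from 1230 and 1375 to 2493 and 2773 CPM (1.02, SE 0.16), with 3273 and 2876 in lactation (0.22, SE 0.16). For all 3 genes the lactating libraries lay above the pregnant ones without a call. Cald1 (caldesmon, which blocks myosin binding to actin) rose by 1.35 (SE 0.23).

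Within this group Smtn and Lmod1 were called at both steps. Smtn, smoothelin, a cytoskeletal protein of contractile smooth muscle, went from 630 and 588 to 986 and 1282 and to 1548 and 1792 CPM (0.90, SE 0.17, and 0.56, SE 0.17, adjusted p 0.0237), and the second call was lost without basal pregnant replicate 1 (0.38, 0.21) or basal lactating replicate 2 (0.45, 0.157). Lmod1, leiomodin, which nucleates actin filaments, had 114 and 101 CPM, then 167 and 214, then 408 and 427. Its lactating libraries were nearly alike and well above the others, and its second step (1.13, SE 0.24, adjusted p 0.00362) was larger than the first (0.82, SE 0.24, 0.021). Cnn2, calponin 2, found in many cell types, had 146 and 132, 204 and 230, and 248 and 239 CPM, with no call at either step (0.64, SE 0.24, 0.0633; 0.17, SE 0.24) and one over the whole span (0.81, SE 0.24, 0.0158; 0.73, 0.0797 without basal virgin replicate 2).

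In the group of the light chain kinase, the phosphatase and their regulators, the kinase was called at the first step alone and the targeting subunits of the phosphatase at both. Mylk, the myosin light chain kinase (chr16:34745199-35002436), had the highest level per length of the group. Its basal CPM were 701 and 772 before pregnancy, 3076 and 3740 at day 18.5 and 3614 and 3166 in lactation. The first step was 2.21 (SE 0.18, adjusted p 4.39e-06) and the pregnant and lactating ranges overlapped (-0.01, SE 0.17, 0.982). Ppp1r14a, the gene of CPI-17, an inhibitor of the phosphatase, had a like course, from 8.69 and 7.46 to 46.0 and 67.8 and to 67.5 and 59.0 CPM (2.81, SE 0.18, 1.1e-06, then 0.15, SE 0.16, 0.487).

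Ppp1r12a, the targeting subunit MYPT1 of the myosin phosphatase (chr10:108162092-108279985), rose more at the second step. Its CPM were 205 and 180 before pregnancy, 282 and 359 at day 18.5 and 779 and 848 in lactation, 3 groups that do not overlap. The steps were 0.73 (SE 0.14, adjusted p 0.00178) and 1.34 (SE 0.14, 4.94e-05). Ppp1r12b, its relative MYPT2, had 19.2 and 14, 29.6 and 39.4, and 69.4 and 76.5 CPM, with steps of 1.05 (SE 0.17) and 1.08 (SE 0.17, 0.000608). The coding sequences of these 2 genes share 63.6% of aligned bases with a longest identical run of 17.

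The other genes of the group were not called at the second step. Prkg1, cyclic GMP-dependent protein kinase I, had 66.2 and 89.5, 162 and 156, and 164 and 138 CPM (1.03, SE 0.16, then -0.07, SE 0.16). Rock2, a serine/threonine kinase, had 130 and 160, 229 and 240, and 231 and 195 CPM (0.69, SE 0.14, then -0.14, SE 0.14). Both rose with pregnancy and their pregnant and lactating values overlapped. Rhoa, a small GTPase, rose by 0.41 (SE 0.10) with pregnancy, and Rock1 was called only over the whole span (0.32, SE 0.11, adjusted p 0.0243; 0.21, 0.188 without basal virgin replicate 1).

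**Figure D3:**
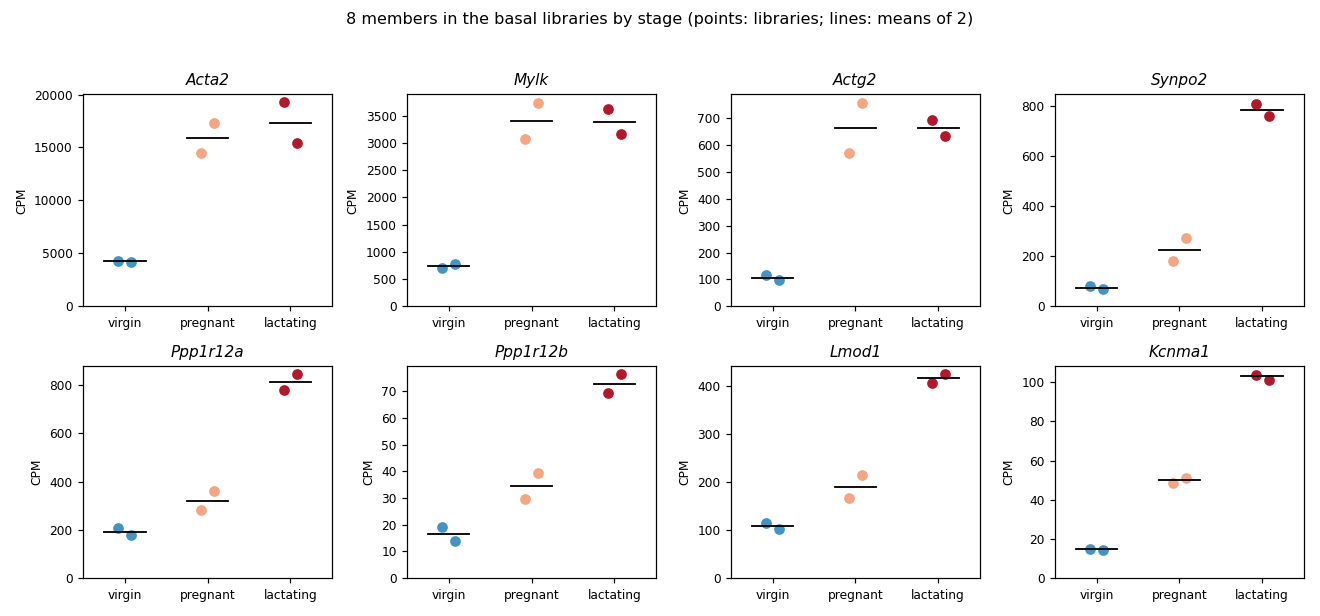
Basal CPM of 8 genes by stage, on linear axes from 0, with a point for each library and a line at the mean of the 2. Acta2, Mylk and Actg2 overlap between pregnant and lactating mice, whereas Synpo2, Ppp1r12a, Ppp1r12b, Lmod1 and Kcnma1 are higher in both lactating libraries than in both pregnant ones.

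Of the attachment and scaffold genes, which tie actin filaments to the membrane, 9 of 11 rose with pregnancy, against 15.6% of all genes. In lactation 4 of 11 rose and 0 fell (36.4%, against 33.1% of all genes called and 15.7% that rose). Flna (filamin A, an actin crosslinker; chrX:74223461-74249854) had the highest level per length, with 3240 and 2827, 5521 and 6250, and 8052 and 7433 CPM. Its groups did not overlap, with steps of 0.96 (SE 0.17, adjusted p 0.00117) and 0.40 (SE 0.17, 0.0872). Synpo2 (synaptopodin 2, an actin-bundling protein of dense plaques and Z-discs; chr3:123076519-123236168) had the largest second step of all 39 members. It had 83.1 and 67.4 CPM before pregnancy, 181 and 273 at day 18.5 and 810 and 759 in lactation, with steps of 1.59 (SE 0.19, 7.24e-05) and 1.79 (SE 0.19, 4.94e-05).

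Pgm5 (aciculin, an adherens-type junction protein; chr19:24678261-24861842) rose from 112 and 127 to 609 and 825 CPM (2.58, SE 0.16, adjusted p 9.1e-07), and stood at 1075 and 905 in lactation (0.47, SE 0.15, 0.0305). The second call of Pgm5 was lost under an analysis setting other than library size alone or a left-out library. Cav1 (caveolin 1, the coat protein of caveolae; chr6:17306335-17341328) rose from 323 and 338 to 1169 and 1429 and to 2463 and 2029 CPM (1.97, SE 0.18, then 0.79, SE 0.18, 0.00508). Itga1, the integrin alpha 1 chain, a collagen receptor, rose from 41.0 and 46.1 to 139 and 200 and to 288 and 225 CPM (1.96, SE 0.17, then 0.60, SE 0.16, 0.0131). The 3 stages did not overlap in any of these 3 genes, but the second step was not called without basal pregnant replicate 1 (adjusted p 0.279 for Pgm5, 0.0626 for Cav1 and 0.142 for Itga1), and for Pgm5 and Itga1 also without basal lactating replicate 1 (0.194 and 0.131).

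Pdlim3, a PDZ and LIM protein that binds alpha-actinin, rose from 259 and 226 to 592 and 687 CPM (1.4, SE 0.17) and had 678 and 690 in lactation (0.10, SE 0.16). Its relative Pdlim7 showed no call at any step in basal cells, with 325 and 304, 370 and 379, and 369 and 364 CPM. The focal adhesion proteins Vcl (vinculin), Tln1 (talin 1) and Actn1 (alpha-actinin 1) rose with pregnancy by 0.78 (SE 0.16), 0.76 (SE 0.12) and 0.48 (SE 0.11), with 0 of the 3 called at the second step. Exons of Ap3m1 cover 25.5% of the exon bases of Vcl, and Ap3m1 was read at 17.0 to 24.8 CPM in basal libraries, against 527 to 1262 for Vcl. In luminal libraries of lactating mice Ap3m1 had 60.8 and 64.6 CPM and Vcl 84.8 and 82.0, so the luminal level of Vcl is uncertain there.

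Des went the other way. This gene codes for desmin, the intermediate filament of muscle, and its basal CPM fell from 13.9 and 10.6 to 3.91 and 7.54, with 4.75 and 4.60 in lactating mice. The virgin libraries were the highest and the other 2 groups overlapped. The change with pregnancy was -1.11 (SE 0.27, adjusted p 0.00858) and that over the whole span was -1.39 (SE 0.28, 0.00136).

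SRF and its partners did not move together. Csrp1, a LIM protein that bridges SRF and GATA factors and binds actin structures (chr1:135720063-135752229), had the highest level per length, with 1362 and 1303, 2403 and 3327, and 4316 and 3983 CPM (1.10, SE 0.19, then 0.53, SE 0.19, adjusted p 0.0474). Its second call was lost in 9 alternatives, among them without basal pregnant replicate 1 (0.32, 0.343). Srf rose from 177 and 172 to 267 and 286 CPM (0.66, SE 0.12, 0.00112) and had 296 and 301 in lactation, just above the pregnant libraries (0.11, SE 0.12).

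Csrp2, a close relative of Csrp1 that marks smooth muscle of arteries, fell from 9.39 and 13.3 to 7.27 and 5.48 and to 4.80 and 3.54 CPM, groups that do not overlap (-0.83, SE 0.23, adjusted p 0.0168 with pregnancy; -1.44, SE 0.24, 0.000396 over the whole span). Myocd, the master coactivator of smooth muscle genes, was close to the limit of counting. It had 47 and 50 counts in the basal libraries of virgin mice (1.63 and 1.89 CPM), 13 and 18 in pregnant (0.480 and 0.742) and 5 and 8 in lactating mice (0.224 and 0.368). The libraries of the 3 stages did not overlap, and the fall was called over the whole span (-2.55, SE 0.63, 0.00569; -2.25, 0.0643 without basal lactating replicate 1). The change of Myocd with pregnancy was not called in the reported fit. It passed in the edgeR fit with a replicate block (-1.55, adjusted p 0.0393). That block is the replicate number, which no label links between stages. Over the whole span 35 of the 39 members rose, and Myocd was among the 3 that fell, with Des and Csrp2. In the same basal libraries 7 of 8 endothelial markers were lower over that span and all 8 with pregnancy. Of 12 pericyte and vascular smooth muscle markers 3 were lower and 5 higher over that span, and 3 lower and 2 higher with pregnancy. The part of endothelial, pericyte or vascular smooth muscle cells in the falls of Myocd, Des and Csrp2 was not tested.

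All 3 ion channel genes were called higher in basal cells from pregnancy to lactation, where 33.1% of all genes were called and 15.7% were higher. Kcnmb1, the beta 1 subunit of the large-conductance potassium channel, found mainly in smooth muscle (chr11:33962955-33973641), had 26.5 and 29.4, 80.1 and 100, and 140 and 124 CPM (1.69, SE 0.13, then 0.55, SE 0.13, adjusted p 0.00623). Kcnma1, the pore-forming subunit of the same channel (chr14:23292288-24005110), had 14.8 and 14.4, 48.6 and 51.3, and 104 and 101 CPM (1.77, SE 0.15, then 1.04, SE 0.14, 0.000299). Cacna1c, the pore of the L-type calcium channel, had 66.8 and 71.0, 74.4 and 85, and 101 and 112 CPM, with a call only at the second step (0.21, SE 0.12, 0.189, then 0.41, SE 0.12, 0.0162). The stages did not overlap in any of the 3. Without basal pregnant replicate 1 the second call was lost for Kcnmb1 (0.39, 0.081) and Cacna1c (0.32, 0.146), and also without basal lactating replicate 1 for Kcnmb1 (0.061) and basal lactating replicate 2 for Cacna1c (0.131).

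The luminal level of a member relative to basal cells ranged widely. For Acta2, Actg2, Myh11, Myl9, Cnn1, Tpm2, Mylk and Kcnmb1 the luminal mean was between 0.133% and 0.516% of the basal mean at each of the 3 stages. Acta2, for example, was at 0.271%, 0.231% and 0.154% in virgin, pregnant and lactating mice. Other members came down to these shares at a later stage, such as Ppp1r14a (3.45%, 0.374% and 0.301%) and Kcnma1 (3.73%, 0.368% and 0.148%). Of the 9 basal markers, Krt5 was at 0.204%, 0.203% and 0.203%, Trp63 at 0.288%, 0.552% and 0.344%, Cdh3 at 0.790%, 0.794% and 0.573%, and Col17a1 at 0.297%, 0.659% and 0.599%. The others varied more between stages or stood higher: Krt14 was at 0.624%, 5.04% and 0.297%, Krt17 at 0.580%, 1.32% and 0.316%, Lgr5 at 0.751%, 0.339% and 6.34%, Oxtr at 4.65%, 9.62% and 1.15%, and Itgb4 at 44.3%, 139% and 43.1%. Basal RNA in the luminal gate was not measured on its own, and its part in the luminal values of the members was not tested. The fitted differences of the rarest of them move with single libraries: without luminal virgin replicate 2 the virgin difference was 9.48 in place of 8.55 for Actg2 (4 and 12 luminal counts) and 9.40 in place of 8.54 for Kcnmb1 (1 and 3 luminal counts).

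At the other end, in virgin mice Rhoa was at 122% of the basal mean, Rock2 at 87.5%, Srf at 84.1%, Rock1 at 65.9%, Ppp1r12b at 43.7%, Vcl at 43.6%, Myl6 at 39.2%, Tln1 at 36.7% and Pdlim3 at 34.4%. In lactating mice Srf had come to 20.4%, Vcl to 7.13%, Cav1 from 28.4% to 1.68% and Pdlim3 to 0.322%. Csrp2 was the member with the highest share in lactation after Rhoa, at 62.1%. Myocd had 8 counts in the luminal libraries of virgin mice, all in 1 library, 1 in pregnant and 0 in lactating mice. The pregnant ratio of basal to luminal Myocd was 25.7 (95% exact binomial interval 4.29 to 1048), and against the limit of 3 counts over the group that a count of 0 allows, it was at least 2.59-fold higher in basal cells of lactating mice. Intervals and limits cover counting error only.

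**Figure D4:**
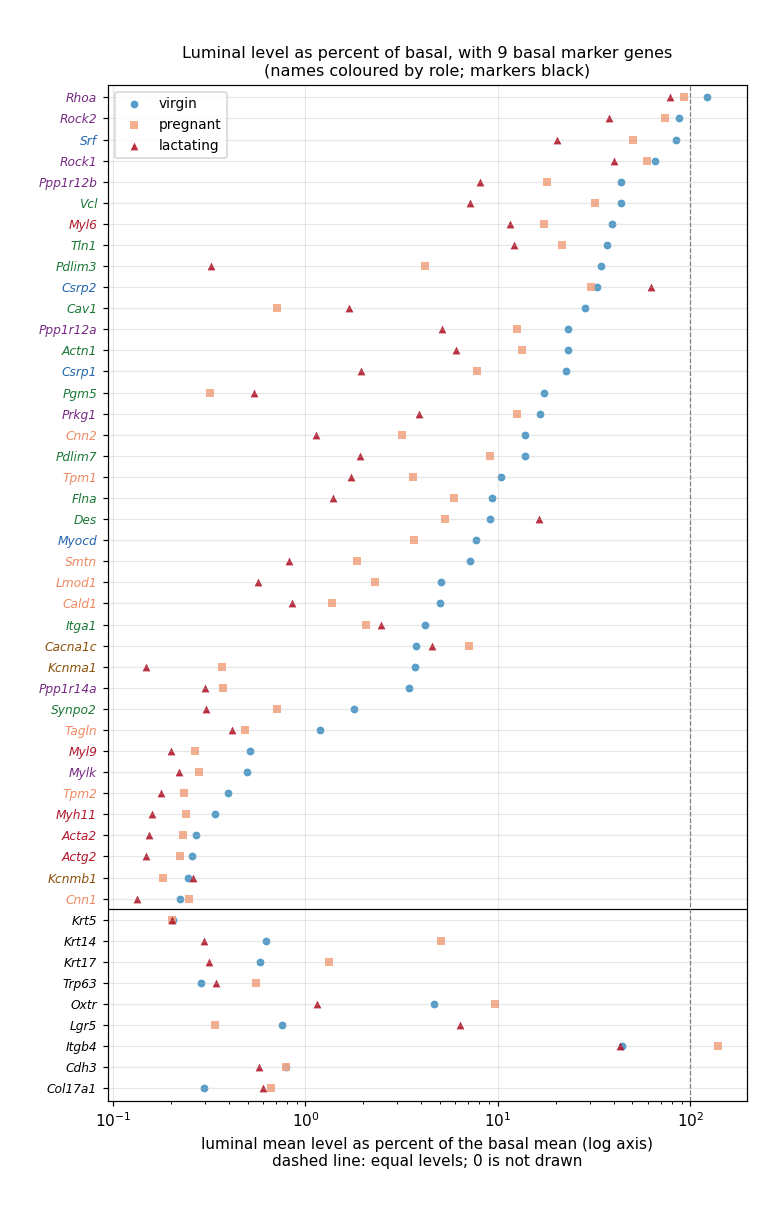
Mean luminal CPM of each gene as percent of its mean basal CPM in virgin, pregnant and lactating mice, on a log axis, with genes in the order of the virgin value and the 9 basal markers at the foot. The 8 lowest genes of virgin mice lie below 1% at every stage, the markers spread from 0.203% to 139%, and Rhoa in virgin mice is the only member right of the dashed line of equal levels.

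Luminal changes between stages went both ways. From virgin to pregnant mice 11 members were higher, 11 were lower and 17 were not called, with a median of -0.16 (-0.04 over all genes, of which 45.9% were called, 21.8% higher and 24.1% lower). From pregnant to lactating mice 3 were higher, 15 lower and 21 not called (median -0.38, 0.00 over all genes, 48.3% called, 23.7% higher and 24.6% lower). From virgin to lactating mice 10 were higher, 20 lower and 9 not called (median -0.65, -0.15 over all genes, 60.2% called, 26.7% higher and 33.5% lower). These directions are relative to TMM scaling. With library size alone the median of all genes moved by -0.50, -0.85 and -1.36 at these 3 comparisons, and from pregnant to lactating mice 30 members were called in place of 18, with 1 higher and 29 lower, while 10597 of 15969 genes were called, 1013 higher and 9584 lower.

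Of the 6 luminal rises with pregnancy that held in every alternative, 5 were of genes whose luminal level in virgin mice was below 1% of the basal level. Of the 9 basal markers 5 rose in the same luminal libraries, 1 fell and 3 were not called (median 0.60), while 21.8% of all genes rose. The summed level of the 9 was 142 and 166 CPM in virgin, 350 and 437 in pregnant and 101 and 102 CPM in lactating mice. The markers did not move alike. From virgin to pregnant mice the luminal percentage of the basal mean went from 0.624% to 5.04% for Krt14 and from 44.3% to 139% for Itgb4. It was 0.204% and 0.203% for Krt5 and 0.790% and 0.794% for Cdh3. The part of basal RNA in the luminal rises of the members was not tested. With pregnancy Acta2 went from 8.1 and 15.1 to 36.8 and 36.5 CPM (1.66, SE 0.25, adjusted p 0.00016), Myh11 from 5.74 and 11.2 to 21.2 and 23.8 (1.41, SE 0.26), Cnn1 from 1.25 and 2.16 to 4.93 and 5.87 (1.65, SE 0.27) and Mylk from 3.19 and 4.12 to 9.05 and 10 (1.38, SE 0.21). In each of these 4 genes the pregnant libraries lay above the virgin ones, and in basal cells the same genes rose by 1.90, 1.91, 1.5 and 2.21. Actg2 (2.39, SE 0.42; 3.32 without luminal virgin replicate 2) and Cacna1c (1.11, SE 0.16) rose too, and these 6 rises held in every alternative. Those of Myl9, Tpm2, Itga1, Prkg1 and Rock2 did not: each was lost without at least 1 luminal library (adjusted p up to 0.0666, 0.0853, 0.0725, 0.108 and 0.227) and with library size alone, where Rock2 came to -0.07. The 10 members higher in lactating than in virgin luminal cells were Acta2, Actg2, Myh11, Myl9, Cnn1, Tpm2, Mylk, Itga1, Kcnmb1 and Cacna1c, and with library size alone 0 of the 10 were called higher and 7 had the opposite sign (Acta2 1.2 and -0.16, Myh11 1.24 and -0.12, Mylk 1.02 and -0.34).

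Of the 11 luminal falls with pregnancy, 5 held in every alternative, those of Cnn2, Smtn, Pgm5, Pdlim3 and Cav1. Actn1, Csrp2, Des, Kcnma1, Pdlim7 and Tpm1 lost theirs without at least 1 luminal library (adjusted p up to 0.227, 0.0895, 0.0622, 0.345, 0.298 and 0.203). From pregnant to lactating mice 11 of 15 falls held. Pdlim3 fell from 94.2 and 72.9 CPM in virgin to 30.8 and 22.5 in pregnant and to 1.83 and 2.58 in lactating mice, 3 groups far apart (-1.65, SE 0.17, adjusted p 8.12e-06, then -3.59, SE 0.24, 2.26e-07). Pdlim7 fell from 39.1 and 48.2 to 31.6 and 36.2 and to 6.34 and 7.80 CPM, mostly at the second step (-2.26, SE 0.15, 2.21e-07). Flna had 284 and 278, 291 and 408, and 102 and 113 CPM, with a fall at the second step alone (-1.70, SE 0.17). Csrp1 fell at that step by 1.48 (SE 0.20), from 185 and 262 to 82.2 and 78.4 CPM, and Srf by 1.19 (SE 0.12), from 138 and 141 to 63.4 and 58.3.

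In the regulatory groups Smtn fell from 37.1 and 50.6 to 19.3 and 22.6 and to 14.9 and 12.7 CPM (-1.07, SE 0.18, adjusted p 0.000373, then -0.60, SE 0.19, 0.0206). Its second call was lost without luminal pregnant replicate 2 (-0.48, 0.121) or luminal lactating replicate 2 (-0.46, 0.172). Cnn2 fell from 19.6 and 19.0 to 3.63 and 10.2 and to 2.83 and 2.73 CPM (-1.5, SE 0.29, then -1.30, SE 0.38). Its 2 pregnant libraries differed, and without luminal pregnant replicate 2 the steps were -2.42 and -0.38, the second without a call (0.193). Tpm1 fell from 126 and 143 to 78.3 and 112 and to 53.2 and 52.4 CPM, with a called second step in every alternative (-0.85, SE 0.17). Between virgin and lactating mice 16 of the 20 falls and 5 of the 10 rises held with DESeq2, RLE factors, no filter, the replicate block, 1 cell type alone and each library left out. Library size alone was no check of the falls, since it moves all genes down in this comparison (12496 of 15969 called lower). The 16 falls were those of Myl6, Cnn2, Tpm1, Smtn, Rock2, Prkg1, Pgm5, Flna, Actn1, Vcl, Tln1, Pdlim3, Pdlim7, Cav1, Srf and Csrp1.

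A dip in late pregnancy was seen for 2 membrane proteins. Luminal Cav1 had 106 and 82.4 CPM before pregnancy, 7.53 and 10.9 at day 18.5 and 35.2 and 40.5 in lactation. The 3 groups did not overlap, with a fall of 3.35 (SE 0.21, adjusted p 9.54e-08) and a rise of 2.04 (SE 0.20, 5.5e-06). Luminal Pgm5 had 21.7 and 19.5, then 2.28 and 2.32, then 4.82 and 5.91 CPM, a fall of 3.16 (SE 0.20, 1.29e-07) and a rise of 1.22 (SE 0.23, 0.000923) that was 0.37 and not called with library size alone. The opposite course, up with pregnancy and down in lactation, was that of Rock2 (124 and 129, 150 and 194, 79.2 and 82.2 CPM; second step -1.09, SE 0.14) and Prkg1 (11.5 and 14.4, 22 and 17.7, 5.50 and 6.29 CPM; second step -1.75, SE 0.20). Of this up-and-down course only the second steps held in every alternative. Endothelial and fibroblast markers were also lowest in the luminal libraries of pregnant mice, and adipocyte markers were lower there than in virgin mice. The summed endothelial level was 122 and 154, then 35.9 and 26.6, then 61.8 and 60.8 CPM, the fibroblast level 386 and 241, 76.2 and 53.9, and 120 and 132 CPM, and the adipocyte level 33.8 and 52.8, 16 and 21.3, and 19.1 and 20.8 CPM. Cav1 is known to be abundant in such cells, and their part in the luminal course of Cav1 and Pgm5 was not tested.

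The changes of the 2 cell types were then compared by the difference of luminal and basal change (luminal minus basal). For pregnant against virgin mice this difference was called in 25 members, 24 of them below 0 and 1 above (median -0.79, -0.05 over all genes, of which 30.7% were called and 16.7% below 0), and 18 held in every alternative. For lactating against pregnant mice it was called in 21, 20 below 0 and 1 above (median -0.84, -0.01 over all genes, 36.2% called, 18.0% below 0), and 15 held. The largest differences were those of Pgm5 (-5.75, SE 0.25, adjusted p 5.9e-08) and Cav1 (-5.33, SE 0.28, 1.26e-07) with pregnancy, both of which rose in basal and fell in luminal cells. Cacna1c was the exception above 0 with pregnancy (0.90, SE 0.20, 0.00442), and Cav1 in lactation (1.25, SE 0.27, 0.0029), which had 0.45 and no call with library size alone. For Acta2, Actg2, Myh11 and Cnn1 neither difference was called (with pregnancy -0.24, SE 0.34, -0.25, SE 0.55, -0.51, SE 0.34, and 0.15, SE 0.33), except for Cnn1 in lactation with the replicate block (-0.91, adjusted p 0.0299). The block also called Tpm2, Flna and Vcl with pregnancy (0.0168, 0.00449 and 0.03) and Cald1, Des, Pgm5 and Csrp2 in lactation (0.0342, 0.0313, 0.0357 and 0.0177), the last 3 above 0.

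**Figure D5:**
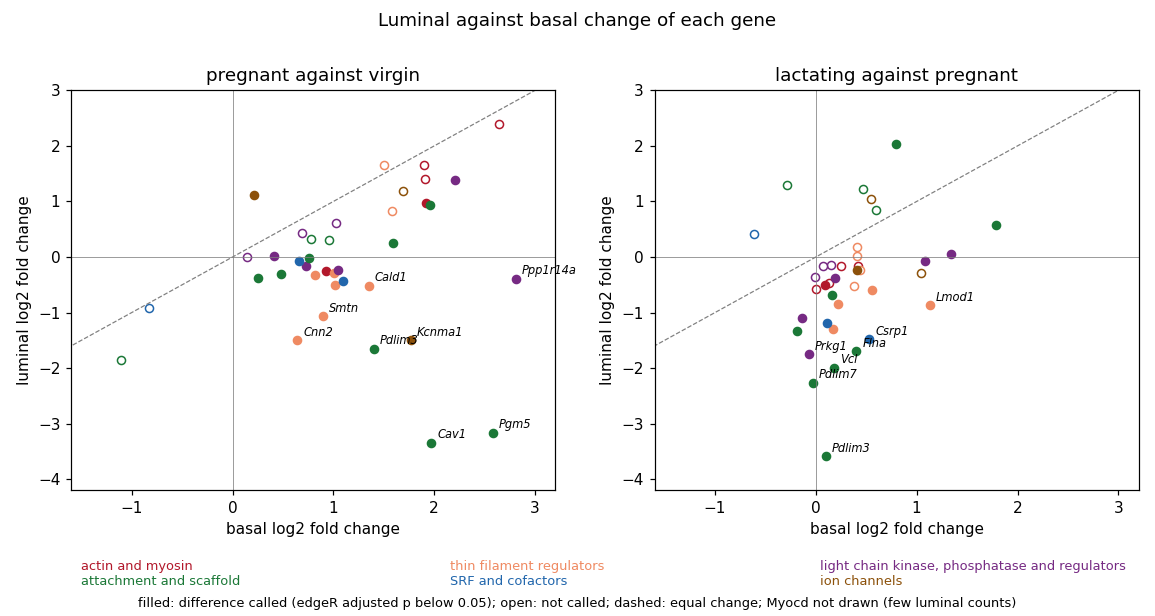
Log2 fold change of each gene in luminal cells against that in basal cells, from virgin to pregnant mice (left) and from pregnant to lactating mice (right). Filled points have a called difference between the 2 cell types, the dashed line marks equal change, colours give the role and Myocd is not drawn. Most points lie below the line, with Pgm5 and Cav1 lowest on the left and Pdlim3 on the right; luminal values depend on TMM scaling, and with library size alone they lie lower by 0.50 (left) and 0.85 (right) at the median of all genes.

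Genes around the apparatus were read from lists chosen by function. Of 14 non-muscle actin, myosin and tropomyosin genes, 5 rose and 3 fell in basal cells with pregnancy (57.1% called against 30.0% of all genes, median 0.13) and 2 rose and 1 fell in lactation (21.4%, below the 33.1% of all genes, median 0.04). Actn4, the non-muscle alpha-actinin, rose most over the whole span (0.96, SE 0.14), from 850 and 900 CPM to 1849 and 1561 in lactating mice, with Myh14 (0.87, SE 0.16) and Actb (0.77, SE 0.14) next. Actb, the beta-actin of all cells, went from 845 and 952 CPM to 1545 and 1529, a smaller change than that of Acta2 over the same span (2.02, SE 0.24). In luminal cells 12 of these 14 were lower in lactating than in pregnant mice and 0 were higher (median -0.91, 0.00 over all genes, of which 24.6% were lower).

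Of 18 other partners of SRF, 16 were tested. In basal cells 7 rose and 4 fell with pregnancy (68.8% called against 30.0% of all genes). In lactation 6 rose and 3 fell (56.2% against 33.1% of all genes). Mef2c, a MADS-box factor related to SRF, rose from 29.4 and 35.7 to 65.0 and 75.6 and to 104 and 112 CPM (1.11, SE 0.14, then 0.62, SE 0.13, adjusted p 0.00379, lost without basal pregnant replicate 1). Tgfb1i1 (Hic-5, a LIM protein of focal adhesions) rose from 140 and 111 to 280 and 302 CPM over the whole span (1.21, SE 0.12). Gata6, a factor of contractile vascular smooth muscle, was lower over the whole span (adjusted p 0.00101), with 24 and 55 counts in basal libraries of virgin and 2 and 3 in those of lactating mice. Mrtfb, the myocardin-related coactivator, dipped in pregnancy, with 39.3 and 36.0, 17.5 and 18.5, and 31.3 and 29.9 CPM (-1.07, SE 0.12, then 0.77, SE 0.12).

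Among 17 tested partners of the light chain phosphatase and kinase, 7 rose and 0 fell with pregnancy (41.2% called against 30.0% of all genes) and 4 rose and 2 fell in lactation (35.3%, near the 33.1% of all genes). Camk2g, a calmodulin-dependent kinase, rose over the whole span from 62.1 and 54.8 to 142 and 129 CPM (1.21, SE 0.11), and Ppp1r14b, a relative of CPI-17, fell from 19.9 and 18.1 to 5.78 and 5.79 CPM (-1.71, SE 0.16). Ppp1r14c also passed the test over that span, at 0.139 and 0.114 against 0.314 and 0.506 CPM (1.65, SE 0.59, 0.0356), and lost it in 11 alternatives.

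Of 9 tested genes of cyclic GMP and relaxation, 5 rose and 2 fell with pregnancy (77.8% called against 30.0% of all genes). In lactation 4 rose and 1 fell (55.6% against 33.1% of all genes). Gucy1a1, a subunit of soluble guanylate cyclase, rose over the whole span from 9.67 and 14.2 to 39.8 and 63.6 CPM (2.11, SE 0.24), and Pde5a, the cyclic GMP phosphodiesterase, from 12.5 and 13.9 to 46.9 and 37.5 CPM (1.68, SE 0.24). Nos3, the endothelial nitric oxide synthase, fell from 8.10 and 11.2 to 2.56 and 3.26 CPM (-1.72, SE 0.31). Adm, adrenomedullin, a relaxing peptide, peaked in pregnancy, with 32.4 and 28.6, 60.1 and 63.7, and 24.2 and 23.5 CPM (1.02, SE 0.14, then -1.37, SE 0.14).

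Of 28 tested calcium and potassium channels and pumps, 7 rose and 9 fell with pregnancy (57.1% called against 30.0% of all genes, median -0.10). In lactation 9 rose and 2 fell (39.3% called against 33.1% of all genes, median 0.11). Casq2, the calcium store protein calsequestrin 2, had 9.56 and 11.1, 42.9 and 69.3, and 216 and 174 CPM (2.44, SE 0.22, then 1.8, SE 0.20, adjusted p 7.4e-05), a larger whole change (4.24, SE 0.23) than that of any member. Ryr3, a ryanodine receptor, had 5.22 and 6.02, 20.5 and 33.5, and 45.9 and 45.7 CPM (3.03, SE 0.22 over the whole span). Atp2b4, a calcium pump of the plasma membrane, had 47.0 and 44.3, 61.6 and 74.0, and 329 and 270 CPM, mostly at the second step (2.14, SE 0.12, 1e-06). Pln, phospholamban, the inhibitor of the calcium pump of the store, was also lower over the whole span, with 31 and 42 counts in basal libraries of virgin and 1 and 3 in those of lactating mice.

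Of 32 tested genes of dense plaques, caveolae and the dystrophin complex, 15 rose and 4 fell with pregnancy (59.4% called against 30.0% of all genes). In lactation 11 rose and 3 fell (43.8% against 33.1% of all genes). Over the whole span 21 rose and 2 fell (71.9% against 47.5% of all genes, median 0.85, 0.00 over all genes). Synm, synemin, an intermediate filament protein that pairs with desmin and vimentin, had 110 and 85.9, 632 and 967, and 1127 and 979 CPM (3.03, SE 0.22, adjusted p 1.99e-06 with pregnancy), while Des itself fell. Dmd, dystrophin, rose from 21.1 and 27.2 to 82.8 and 107 and to 116 and 110 CPM (1.97, SE 0.18 with pregnancy). Cavin1, the partner of Cav1 in caveolae, had 359 and 302, 384 and 440, and 964 and 860 CPM, and rose in lactation alone (1.15, SE 0.13, 9.87e-05). Pdlim1 fell over the whole span (-2.03, SE 0.13), from 43.2 and 52.6 to 10.9 and 12.5 CPM.

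Markers of other cells that use or neighbour this apparatus were read beside the members. The summed level of 12 pericyte and vascular smooth muscle markers was 357 to 380 CPM in basal libraries of virgin, 673 to 777 in pregnant and 870 to 981 in lactating mice, with 2 of 12 higher and 3 lower with pregnancy and 5 higher and 3 lower over the whole span. Most of the sum was Ntrk3, which went from 85.1 and 64.6 to 494 and 549 and to 595 and 542 CPM, and Mcam (181 to 214, 108 to 128 and 240 to 278 CPM). None of the 12 was at 0 counts in both libraries of a basal group. The defining markers Rgs5 and Pdgfrb had 6.47 to 14.7 CPM and 15.4 to 29.0 CPM in the 6 basal libraries. The part of pericytes and vascular smooth muscle in the basal rise was not tested.

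Endothelial markers moved against most members and in the direction of Des, Csrp2 and Myocd. All 8 fell in basal cells with pregnancy, from a summed level of 317 and 515 CPM to 112 and 148, and 7 of 8 were lower over the whole span. Nos3, read above, is known from the same cells. Of 6 tested skeletal muscle markers 3 rose in basal cells over the whole span and 0 fell, from a summed level of 2.19 and 2.31 to 110 and 78.5 CPM. Of that sum Tnni2 had 99.1 and 66.4 CPM and Acta1, the skeletal muscle alpha-actin, 9.42 and 10.1 in lactating mice, while Ckm, the muscle creatine kinase, had 0.314 and 0.552. The summed fibroblast level in basal libraries went with the members, from 198 and 283 to 672 and 865 CPM with pregnancy and 513 and 444 in lactation. Most of it was Dcn, decorin (54.2 and 89.0, 434 and 580, 316 and 271 CPM), and 2 of 9 fibroblast markers rose with pregnancy, 1 fell and 6 were not called. The adipocyte, leukocyte and erythroid sums lay at 93.5 to 258, 9.47 to 14.8 and 1.35 to 8.24 CPM. The part of these cells in the values of the members was not tested.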

How the data were processed

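RNA sequencing of 12 libraries was deposited by the authors as raw read counts per Entrez gene, with no normalization. The submitters' processing notes name CASAVA 1.8.2, Subread 1.4.4, featureCounts, GRCm38 and mm10. The strand setting is not given in the sources used here. The table and the 12 single-library files differed in 0 counts. Symbols and coordinates came from RefSeq (GRCm38.p6), and 25275 identifiers matched. Members, lists and rules were chosen with earlier results of these data known. Named were the member of each role with the highest basal level per length, the 2 with the largest called change per comparison, those called in opposite directions, and up to 3 related genes per list.

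edgeR 4.0.16 (R 4.3.3) fitted 6 group means over all libraries, after filterByExpr (minimum count 10) and TMM scaling, with Benjamini-Hochberg adjustment over 15969 genes and a threshold of 0.05. Scripts were tested on simulated data. The 18 alternatives were DESeq2 1.42.0, RLE factors, library size alone, no filter, the replicate block, 6 libraries of the cell type alone, and each of 12 libraries left out. Totals of 20015386 to 24723827 counts limit precision for genes under about 1 CPM.

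The labels number replicates without naming mice. Luminal and basal libraries with the same number deviated from their group means with correlations of 0.249 (virgin), 0.37 (pregnant) and 0.179 (lactating) over 8500 genes, against -0.279 to 0.169 for other pairs of groups. Groups of different stages also exceeded 0.1, with 0.169 for luminal pregnant with basal virgin and 0.157 for basal virgin with basal pregnant. These values therefore do not settle whether libraries were paired, and no label states it. The reported fit has no replicate block, and the fit with one is an alternative. For changes between stages the block was the replicate number over all libraries, although no label links equal numbers of different stages. For comparisons of the cell types and for the luminal minus basal differences, it was the combination of stage and replicate number. The Gm48529, Pcsk7 and Ap3m1 overlaps are from GENCODE vM21. The result of 1 related gene list is not reported here.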

Additional observations from a re-analysis of the deposited data

Results flagged for a closer look

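The change between stages differed between luminal and basal cells by a test of the difference itself (edgeR, luminal minus basal log2 change, adjusted p below 0.05) in 25 members for pregnancy and 21 for lactation, and up to 2 per role are given. With pregnancy the differences were -1.18 for Myl6 and -0.95 for Myl9, -2.14 for Cnn2 and -1.96 for Smtn, -3.20 for Ppp1r14a and -1.28 for Ppp1r12b. They were -5.75 for Pgm5 and -5.33 for Cav1, -1.54 for Csrp1 and -0.74 for Srf, and -3.27 for Kcnma1 and 0.90 for Cacna1c. In lactation they were -0.58 for Myl6, -2.0 for Lmod1 and -1.46 for Cnn2, -1.68 for Prkg1 and -1.29 for Ppp1r12a. They were -3.69 for Pdlim3 and -2.23 for Pdlim7, -2.01 for Csrp1 and -1.31 for Srf, and -0.65 for Cacna1c.

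Not all of these calls hold when 1 library is left out. That of Myl9 was lost without any of 6 libraries (adjusted p up to 0.215, without luminal virgin replicate 2), that of Myl6 in lactation up to 0.11 (without luminal pregnant replicate 2), that of Cnn2 in lactation up to 0.0918 (without luminal lactating replicate 2) and that of Cacna1c in lactation up to 0.122 (without luminal lactating replicate 1). Without luminal pregnant replicate 2 the values of Cnn2 were -3.05 and -0.55 and that of Lmod1 in lactation was -1.17. Ppp1r14a and Kcnma1 had under 32 luminal counts per group, and Kcnma1 had -2.6 without luminal virgin replicate 1 and -4.16 without luminal pregnant replicate 1.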

How the results depend on the processing

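Counts of members called kept within 1.5 times of the reported count in every alternative but 2. In basal cells from pregnancy to lactation the reported 12 became 5 to 15 with 1 library left out, the 5 without basal pregnant replicate 1. In luminal cells from pregnancy to lactation the reported 18 became 30 with library size alone. With 1 library left out, the counts were 36 to 37, 37 to 38 and 36 to 39 for basal against luminal cells of virgin, pregnant and lactating mice, 30 to 35 and 33 to 38 for basal cells from virgin to pregnant and to lactating mice, and 15 to 22, 14 to 19 and 24 to 31 for luminal cells from virgin to pregnant, pregnant to lactating and virgin to lactating mice. They were 18 to 26 and 16 to 23 for the 2 luminal minus basal differences. A lone library of a group is there assumed to vary like the other groups.

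Single changes called in either fit reversed sign under library size alone, which drops the TMM factors, and in no other alternative. In luminal cells with pregnancy these were Rock2 (-0.07) and Rhoa (-0.50), and Rhoa was not called in the reported fit. From pregnancy to lactation they were Tagln (-0.66), Tpm2 (-0.83), Ppp1r12a (-0.80) and Itga1 (-0.00), of which only Itga1 was called in the reported fit. From virgin to lactating mice they were Acta2 (-0.16), Myh11 (-0.12), Myl9 (-0.54), Cnn1 (-0.23), Tpm2 (-0.52), Mylk (-0.34) and Cacna1c (-0.48).

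With the replicate block the counts of members were 37, 38 and 39 for basal against luminal cells, 35, 12 and 37 for the basal and 22, 18 and 30 for the luminal stage comparisons, and 28 and 26 for the differences. The block added 9 single calls and ended 1, that of Actn1 in basal cells from virgin to lactating mice (0.29, adjusted p 0.0573). In basal cells library size alone moved the median of all genes by -0.16 with pregnancy and -0.20 over the whole span. With 2 libraries a group, calls near the threshold and genes with few counts, such as Myocd, are the least certain.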
